A study of Mus musculus with 20 samples.

Results

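The acute phase proteins examined here are 10 plasma and secreted proteins of the liver, encoded by Saa1, Saa2, Saa3, Saa4, Orm1, Orm2, Hp, Hpx, Lcn2 and Apcs. The genes were selected by symbol from a table of 55421 gene identifiers, and all 10 were found and all 10 were among the 22867 genes with at least 10 counts in total that were tested. Expression was measured by poly(A) RNA-seq in 20 mouse livers, 5 in each of 4 groups. All animals were wildtype C57BL/6 mice that received a single AAV8 vector into the retro-orbital sinus at 6 months of age. The vector carries Staphylococcus aureus Cas9 (saCAS9) under the hepatocyte-specific Tbg promoter and a guide RNA under U6, so every control also carries virus and nuclease. The guide was directed against Hira, whose product places the histone variant H3.3 into chromatin, or against the Rosa26 locus as the control. The livers date from 3 weeks or 6 months after the injection, so time after injection and age of the mouse cannot be told apart. The titles call the mice female, whereas the study's text and figure legend differ on the sex of this time course.

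In the acute phase response, macrophage cytokines such as interleukin 6 and interleukin 1 act on hepatocytes and switch on a set of secreted proteins, largely through the transcription factors STAT3, C/EBP and NF-kB. In the mouse, serum amyloid A1 and A2, orosomucoid 2 and lipocalin 2 are the strongly inducible members, while haptoglobin, hemopexin and orosomucoid 1 are abundant at rest and rise less. Serum amyloid P component, encoded by Apcs, is the mouse pentraxin that takes the acute phase role held by C-reactive protein in people.

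Libraries held 19916430 to 24079736 counts. Hira, the targeted gene, had 128 to 171 counts in the Rosa26 livers and 87 to 127 in the HIRA-guide livers at 3 weeks, with no overlap (log2 fold change -0.48, adjusted p = 0.197 in edgeR). At 6 months the ranges were 105 to 157 and 109 to 136 counts (log2 fold change -0.10), and a guide-induced lesion need not lower the transcript. One library, HIRA guide at 6 months replicate 5, did not match its label of sex: its 4 Y-linked marker genes summed to 103.7 CPM (counts scaled to the TMM-normalised library size), against at most 0.659 CPM in any liver of the other 3 groups, and Xist stood at 0.457 CPM. Hepatocyte markers summed to 84170 to 163400 CPM over the 20 livers, as the tissue label says. Neutrophil markers, a possible second source of Lcn2, summed to 4.78 to 73.8 CPM.

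The pattern the results turn on was a difference between individual control livers. One Rosa26 liver at 3 weeks, replicate 2, had the highest value of all 20 livers for 9 of the 10 genes, and 4 of the 5 Rosa26 livers at 6 months were also high, whereas no HIRA-guide liver reached these levels for Saa1, Saa2, Orm2 or Lcn2. Transcripts of the 10 genes took 3.47% of all counts in that 3-week liver, while the median share was 1.01% in the Rosa26 group at 3 weeks, 0.84% in the HIRA group at 3 weeks, 2.14% in the Rosa26 group at 6 months and 1.07% in the HIRA group at 6 months. At 6 months, Rosa26 replicate 1 was the lowest of its group for 9 genes. Per transcript length, the median level over the 20 livers ran from 3133 FPKM (fragments per kilobase of transcript, scaled for depth) for Hpx, 2523 for Hp and 1264 for Orm1 through 524 for Saa1, 372 for Saa2, 135 for Apcs, 106 for Saa4, 104 for Orm2 and 44.1 for Lcn2 to 15.9 for Saa3. The ranges of FPKM of neighbours in this order overlapped, and Saa1 alone ran from 80.3 to 6954 FPKM. The order also differed between groups: in the Rosa26 group at 6 months the medians of Saa2 (3052 FPKM) and Saa1 (3016) were above that of Orm1 (2030), and those of Orm2 (339) and Lcn2 (292) above that of Apcs (226).

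**Figure D1:**
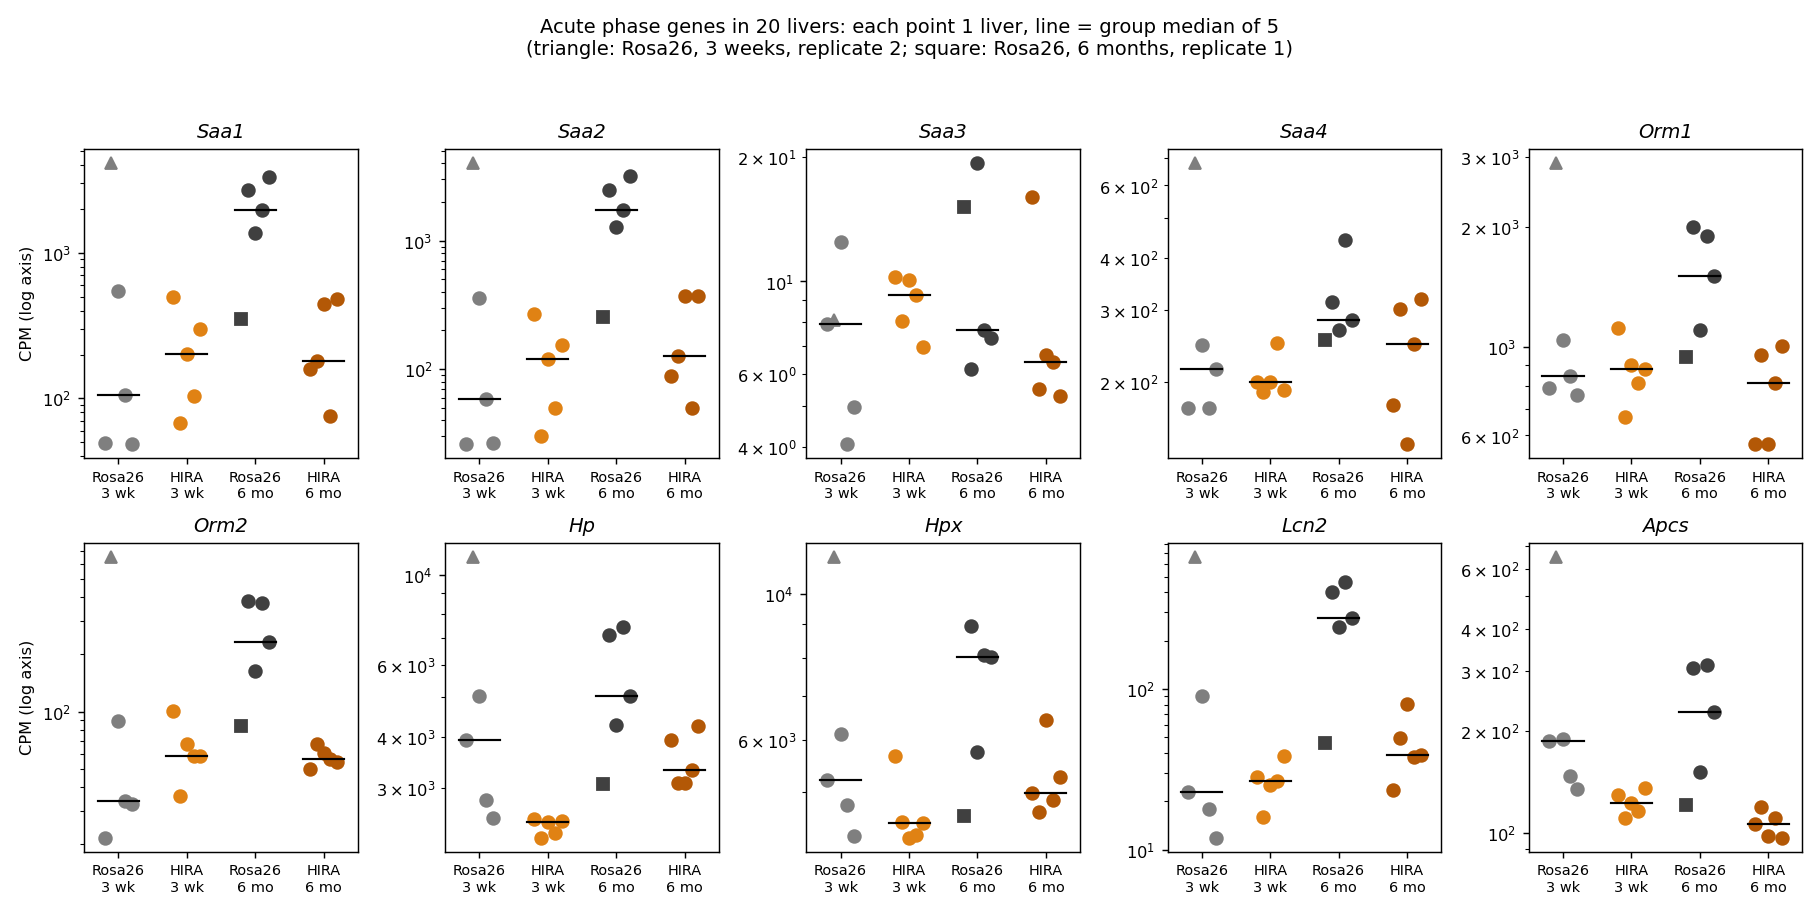
CPM (log axis) of the 10 acute phase genes in each of 20 livers by guide and time, with the median of 5 as a line, the Rosa26 replicate 2 at 3 weeks as a triangle and the Rosa26 replicate 1 at 6 months as a square. The triangle is the highest point in 9 panels, Saa3 being the exception, and 4 or 5 of the 5 Rosa26 livers at 6 months lie above all HIRA-guide livers of that time in 7 panels.

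The serum amyloid A genes, whose products are lipoprotein-bound proteins of the acute phase, lie together on chromosome 7 (GRCm38). Saa3 (ENSMUSG00000040026.8) covers 46711998 to 46715700, Saa4 (ENSMUSG00000040017.8) covers 46727998 to 46732603 and Saa1 (ENSMUSG00000074115.5) covers 46740497 to 46742980, all on the minus strand, and Saa2 (ENSMUSG00000057465.5) covers 46751790 to 46754313 on the plus strand. No other annotated gene overlapped any of the 10 genes. Saa1 and Saa2 are near-identical copies: 13.2% of the 50-base stretches of the Saa1 transcript occur in Saa2 transcripts and 11.2% the other way, so reads could be split between them or lost, and the value of each is uncertain to that degree. In the highest livers the 2 genes had nearly equal counts.

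Saa1 had 49.4, 4130, 546, 105 and 48.5 CPM in Rosa26 livers 1 to 5 (in the order of their replicate numbers, as in all such lists here) at 3 weeks. The HIRA group at 3 weeks had 500, 68.0, 201, 103 and 299 CPM of Saa1. Rosa26 replicate 2 stood far above all others, replicate 3 just above the HIRA-guide range, and the other 3 within or below it. At 6 months Saa1 stood at 351, 2704, 1371, 1970 and 3302 CPM in the Rosa26 group. In the HIRA group at 6 months it stood at 159, 182, 446, 75.9 and 481 CPM. At this time 4 of 5 Rosa26 livers were above all 5 HIRA-guide livers, and replicate 1 lay inside their range. The log2 fold change of Saa1 for the HIRA guide over Rosa26 was -2.06 ± 0.97 (SE) at 3 weeks (adjusted p = 0.55) and -2.85 ± 1.00 at 6 months (adjusted p = 0.159), both by the quasi-likelihood test of edgeR over all tested genes.

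Saa2, the partner isoform, followed Saa1. Its values at 3 weeks were 26.1, 4018, 361, 58.3 and 26.4 CPM in the Rosa26 livers, against 269, 30.1, 119, 49.4 and 155 CPM in the HIRA-guide livers. Its values at 6 months were 253, 2502, 1270, 1750 and 3173 CPM in the Rosa26 livers, against 88.9, 126, 374, 49.8 and 372 CPM in the HIRA-guide livers. The lowest and highest of the 20 livers differed 154-fold for Saa2 and 85.2-fold for Saa1, both within the single group of Rosa26 livers at 3 weeks. The guide effect on Saa2 was -2.85 ± 1.11 (log2) at 3 weeks (adjusted p = 0.425) and -3.15 ± 1.12 at 6 months (adjusted p = 0.168, edgeR). The ratio of Saa1 to Saa2 counts was 1.03 in the 3-week Rosa26 replicate 2 and 1.04 to 1.13 in the 4 high Rosa26 livers at 6 months. In the other 15 livers the ratio ran from 1.19 to 2.26, so the livers with the most serum amyloid A transcript had the least excess of Saa1 over Saa2.

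Saa3 and Saa4 did not share this pattern in full. Saa3, which in mice is expressed mainly in macrophages and adipocytes outside the liver parenchyma, had 4.06 to 19.3 CPM over the 20 livers, and the 3-week Rosa26 replicate 2 ranked 8 among them with 8.09 CPM. Its log2 fold change was 0.25 at 3 weeks (adjusted p = 0.921) and -0.48 at 6 months (adjusted p = 0.549, edgeR). Saa4, the constitutive serum amyloid of lipoproteins, stood at 679 CPM in that Rosa26 liver, against 173 to 246 CPM in the other 4 of its group and 189 to 250 CPM in the HIRA-guide livers. At 6 months Saa4 ran from 254 to 442 CPM in the Rosa26 livers and from 142 to 318 CPM in the HIRA-guide livers. The groups overlapped at both times, with log2 fold changes of -0.53 (adjusted p = 0.676) and -0.40 (adjusted p = 0.581) in edgeR.

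The promoters of the genes that moved most, and that of Saa3 for contrast, are shown from 250 bases before to 50 bases after the RefSeq start site (GRCm38.p6), 5′ to 3′ on the gene's strand. Promoter sequence was matched by symbol for 8 of the 10 genes, all except Orm1 and Hp. They lie at chr7:46742931-46743230 on the minus strand (Saa1), chr7:46751583-46751882 on the plus strand (Saa2), chr7:46715627-46715926 on the minus strand (Saa3), chr4:63362199-63362498 on the plus strand (Orm2) and chr2:32387690-32387989 on the minus strand (Lcn2). Capitals mark matches on either strand to the C/EBP-type motif TTGCNNAA or the NF-kB-type motif GGNNTTTCC.
Saa1 promoter: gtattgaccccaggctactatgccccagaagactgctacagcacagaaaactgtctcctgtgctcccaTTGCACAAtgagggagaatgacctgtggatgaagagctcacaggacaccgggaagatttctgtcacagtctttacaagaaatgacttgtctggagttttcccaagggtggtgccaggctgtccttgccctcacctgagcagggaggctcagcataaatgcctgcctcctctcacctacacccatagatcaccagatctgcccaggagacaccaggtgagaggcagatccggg
Saa2 promoter: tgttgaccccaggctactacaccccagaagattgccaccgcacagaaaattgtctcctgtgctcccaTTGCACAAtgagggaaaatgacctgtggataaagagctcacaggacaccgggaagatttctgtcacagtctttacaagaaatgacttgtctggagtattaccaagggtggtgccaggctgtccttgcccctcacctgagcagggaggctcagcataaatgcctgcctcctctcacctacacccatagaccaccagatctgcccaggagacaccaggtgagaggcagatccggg
Saa3 promoter: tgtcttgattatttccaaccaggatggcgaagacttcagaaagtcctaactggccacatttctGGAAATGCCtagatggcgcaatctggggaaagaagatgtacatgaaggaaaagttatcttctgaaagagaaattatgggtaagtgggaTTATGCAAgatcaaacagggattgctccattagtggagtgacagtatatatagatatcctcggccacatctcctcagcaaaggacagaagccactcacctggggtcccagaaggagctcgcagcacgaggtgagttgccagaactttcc
Orm2 promoter: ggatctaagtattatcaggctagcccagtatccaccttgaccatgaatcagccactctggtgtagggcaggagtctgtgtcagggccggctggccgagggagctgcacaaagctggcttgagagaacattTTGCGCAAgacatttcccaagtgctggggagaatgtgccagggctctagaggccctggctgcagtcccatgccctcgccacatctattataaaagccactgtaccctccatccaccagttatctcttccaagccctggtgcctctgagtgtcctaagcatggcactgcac
Lcn2 promoter: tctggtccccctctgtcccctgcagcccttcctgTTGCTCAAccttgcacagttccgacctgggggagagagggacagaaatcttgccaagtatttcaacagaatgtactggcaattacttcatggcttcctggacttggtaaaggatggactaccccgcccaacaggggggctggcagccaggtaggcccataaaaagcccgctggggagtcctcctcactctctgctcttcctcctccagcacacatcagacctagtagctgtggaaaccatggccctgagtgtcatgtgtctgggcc
The C/EBP-type motif was present in 7 of the 8 promoters (Saa1, Saa2, Saa3, Saa4, Orm2, Hpx and Lcn2) and in 10.8% of all 32851 mouse promoters of the same length. In Saa1 and Saa2 it has the same 8 letters and begins 182 and 183 bases before the start site. The Saa1 and Saa2 promoters were identical at 287 of 301 aligned positions (95.3%), whereas Saa1 and Saa3 were identical at 54.1% of 333. The NF-kB-type motif, found in 5.8% of all promoters, was matched only in Saa3 among the 8. A STAT-type motif, TTCNNNGAA, was matched only in Apcs (8.3% of all promoters), as was the CTGGGAA element (11.1% of all promoters), which occurred 2 times on its antisense strand. No promoter of the 8 held GTTAATNAT, an HNF1-type motif (0.8% of all promoters).

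The orosomucoids, or alpha-1 acid glycoproteins, are drug- and lipid-binding plasma proteins. Orm1 (ENSMUSG00000039196.2, chromosome 4, 63344560 to 63348163) and Orm2 (ENSMUSG00000061540.3, chromosome 4, 63362449 to 63365878) lie on the plus strand with Orm3 between them, and 20.4% of the 50-base stretches of Orm1 and of Orm2 occur in the other, which again makes each value uncertain. Orm2 had 21.7, 654, 88.8, 33.9 and 32.5 CPM in the Rosa26 livers at 3 weeks, against 101, 36.0, 67.8, 58.5 and 58.7 CPM in the HIRA-guide livers. Apart from replicates 2 and 3, the Rosa26 values were below every HIRA-guide value. At 6 months Orm2 had 84.2, 383, 164, 374 and 233 CPM in the Rosa26 livers and 49.8, 67.8, 60.5, 56.4 and 54.1 CPM in the HIRA-guide livers. All 5 HIRA-guide livers were then below all 5 Rosa26 livers. The log2 fold change of Orm2 was -1.37 ± 0.68 at 3 weeks (adjusted p = 0.576) and -2.10 ± 0.69 at 6 months (adjusted p = 0.137, edgeR).

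Orm1, the more abundant copy, varied less than Orm2. Its values at 3 weeks were 789, 2891, 1043, 845 and 759 CPM in the Rosa26 group and 1113, 669, 899, 815 and 883 CPM in the HIRA group. At 6 months they were 947, 2003, 1105, 1900 and 1511 CPM with the Rosa26 guide and 573, 957, 571, 815 and 1006 CPM with the HIRA guide. Of the 5 Rosa26 livers, 4 lay above every HIRA-guide liver at 6 months, and only replicate 2 did at 3 weeks. The guide effect on Orm1 was -0.53 ± 0.31 at 3 weeks (adjusted p = 0.686) and -0.93 ± 0.32 at 6 months (adjusted p = 0.147, edgeR). The ratio of Orm1 to Orm2 counts was 36.4 in Rosa26 replicate 1 at 3 weeks and 4.42 in replicate 2 of the same group, the extremes of the 20 livers, and ranged from 5.09 to 6.73 in the 4 high Rosa26 livers at 6 months.

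**Figure D2:**
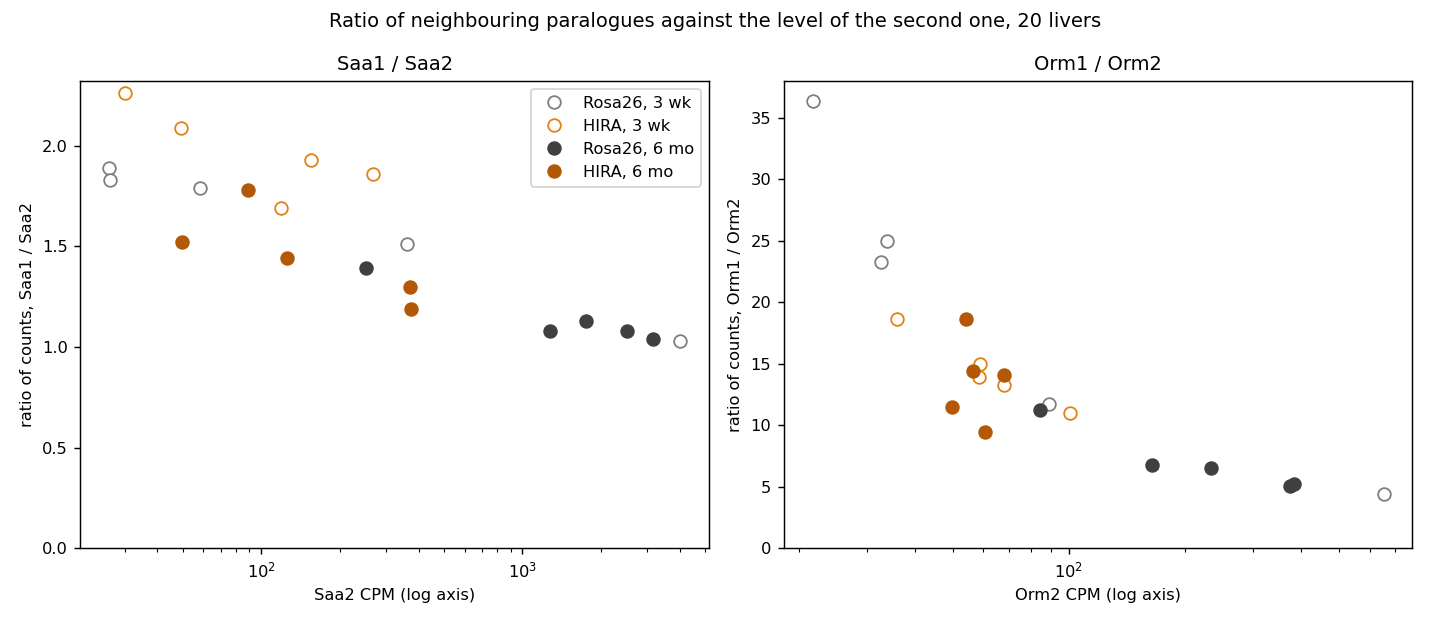
Ratio of counts of Saa1 to Saa2 (left) and of Orm1 to Orm2 (right) in 20 livers against the CPM of the second gene of each pair on a log axis, open circles for 3 weeks and filled circles for 6 months. The livers at the right, with the most Saa2 and Orm2, have ratios of 1.03 to 1.13 and 4.42 to 6.73, and since the second gene is on both axes the slope is partly built in.

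Haptoglobin (Hp), which binds free hemoglobin, and hemopexin (Hpx), which binds free heme, were the most abundant of the 10 per length. Hp (ENSMUSG00000031722.10, chromosome 8, 109575128 to 109579172, minus strand) had 3944, 11060, 5041, 2799 and 2527 CPM in the Rosa26 livers at 3 weeks and 2525, 2266, 2474, 2325 and 2495 CPM in the HIRA-guide livers. The groups did not overlap, though Rosa26 replicate 5 and HIRA replicate 1 all but touched, and the HIRA-guide values were tightly packed (SD 0.069 on the log2 scale, against 0.851 in the Rosa26 group). At 6 months the Hp values were 3067, 7128, 4275, 7464 and 5056 CPM with the Rosa26 guide and 3926, 3078, 3091, 3316 and 4265 CPM with the HIRA guide, and the ranges overlapped through Rosa26 replicate 1. The log2 fold change of Hp was -1.07 ± 0.31 at 3 weeks (adjusted p = 0.196) and -0.61 ± 0.30 at 6 months (adjusted p = 0.339, edgeR). Hpx (ENSMUSG00000030895.9, chromosome 7, 105591613 to 105600137, minus strand) ranged from 4255 CPM to 11400 CPM over all livers. Its log2 fold changes were -0.45 ± 0.22 (adjusted p = 0.575) and -0.44 ± 0.22 (adjusted p = 0.357, edgeR), with overlapping groups at both times.

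Lipocalin 2 (Lcn2, ENSMUSG00000026822.14, chromosome 2, 32384633 to 32388252, minus strand) sequesters bacterial siderophores. It had 22.7, 664, 90.4, 18.0 and 11.9 CPM in the Rosa26 livers at 3 weeks, against 28.2, 15.9, 25.2, 26.8 and 38.4 CPM in the HIRA-guide livers. Replicates 2 and 3 of the Rosa26 group were above, and the other 3 within or below, the HIRA-guide range. At 6 months its values were 46.3, 401, 243, 465 and 277 CPM with the Rosa26 guide and 23.5, 49.5, 80.6, 37.9 and 38.8 CPM with the HIRA guide. Here 4 Rosa26 livers were again above all 5 HIRA-guide livers, with replicate 1 inside their range. The guide effect on Lcn2 was -2.58 ± 0.83 (log2) at 3 weeks (adjusted p = 0.266) and -2.64 ± 0.83 at 6 months (adjusted p = 0.119, edgeR). Neutrophils also make Lcn2, and their 11 markers summed to 16.0 CPM in the 3-week Rosa26 replicate 2 and to 73.8 CPM in replicate 3 of that group, the highest of all. At 6 months these markers summed to 5.88 to 9.46 CPM in Rosa26 replicates 2, 4 and 5, which were high in Lcn2, and to 43.2 CPM in replicate 3. With the HIRA guide, 11 of the 11 neutrophil markers had a lower mean at 3 weeks (median log2 fold change -1.92) and 9 of 11 at 6 months (median -0.71), and none was called. At an unadjusted p under 0.05, 9 of the 11 were lower at 3 weeks, beside 4.5% of all tested genes, and 2 of 11 at 6 months, beside 6.85%. Without Rosa26 replicate 2, 9 of 11 were lower at that p at 3 weeks (median -2.21). That fit keeps replicate 3, whose sum of 73.8 CPM stood far above the 7.21 to 16.0 CPM of the rest of its group. These markers were not counted without replicate 3, so how far their difference rests on that liver was not tested. The sums overlapped between guides at both times, from 7.21 to 73.8 CPM (median 10.7) with the Rosa26 guide against 5.44 to 11.8 CPM (median 7.36) at 3 weeks, and from 5.88 to 43.2 CPM (median 6.27) against 4.78 to 16.1 CPM (median 11.1) at 6 months. Of the defining markers, Ly6g was at 0 counts in 15 of the 20 livers, whereas S100a8 and S100a9 were at 0 in none and S100a9 reached 24.7 CPM. The part of neutrophils in the Lcn2 values was not tested.

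Serum amyloid P (Apcs, ENSMUSG00000026542.6, chromosome 1, 172893961 to 172895041, minus strand) gave the smallest adjusted p-value of the 10 at 6 months. It had 186, 650, 189, 147 and 135 CPM in the Rosa26 livers at 3 weeks and 129, 110, 123, 116 and 136 CPM in the HIRA-guide livers, which touch only at Rosa26 replicate 5 and HIRA replicate 5. At 6 months it had 121, 306, 152, 312 and 227 CPM with the Rosa26 guide and 106, 119, 98.0, 111 and 96.9 CPM with the HIRA guide, without overlap. The spread among HIRA-guide livers was small at both times (SD 0.119 and 0.124 on the log2 scale), against 0.918 and 0.611 among Rosa26 livers. The log2 fold change of Apcs was -1.09 ± 0.34 at 3 weeks (adjusted p = 0.239) and -1.07 ± 0.34 at 6 months (adjusted p = 0.117, edgeR). In bulk liver, fewer expressing cells and less transcript per cell cannot be told apart for any of these genes.

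Counted together, 9 of the 10 genes had a lower mean with the HIRA guide at 3 weeks and 10 of 10 at 6 months, with a median log2 fold change of -1.08 and -1.001, beside -0.006 and 0.029 over all tested genes. None of the 10 passed the thresholds (adjusted p under 0.05 and absolute log2 fold change over 1, edgeR) at either time, where 0.114% and 0.332% of all tested genes did, and limma-voom also called none of the 10. At an unadjusted p under 0.05, 5 of the 10 were lower at 3 weeks, beside 4.5% of all tested genes, and 6 of the 10 were lower at 6 months (Saa1, Saa2, Orm1, Orm2, Lcn2 and Apcs), beside 6.85%. The 5 HIRA-guide livers were all below the 5 Rosa26 livers for 1 gene at 3 weeks (Hp), beside 1.24% of all genes, and for 2 at 6 months (Orm2 and Apcs), beside 1.74%. By DESeq2, the study's tool, 1 gene was called lower at 3 weeks (Hp, adjusted p = 0.0383), where 0.118% of all genes were. DESeq2 called 4 lower at 6 months (Saa2, Orm2, Lcn2 and Apcs, adjusted p = 0.0273 to 0.0496), where 0.166% of all genes were called lower.

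A single library changed several of these values. Without Rosa26 replicate 2 at 3 weeks, the log2 fold changes at 3 weeks were 0.32 for Saa1, 0.08 for Saa2, 0.03 for Saa4, 0.03 for Orm1 and 0.54 for Orm2, all opposite in sign to those with the library, and -0.57 for Hp, -0.42 for Apcs, -0.41 for Lcn2 and -0.13 for Hpx. Without it 4 of the 10 genes were lower at 3 weeks, 1 of them at an unadjusted p under 0.05 (Hp), and the median of the 10 was 0.028. The direction at 3 weeks of Saa1, Saa2, Saa4, Orm1 and Orm2 rests on that animal, as does most of the size of the difference for Lcn2, Hpx and Apcs, and part of it for Hp. Neither with nor without it did edgeR call any of the 10 at 3 weeks, and DESeq2 was not run without it. At 6 months, where that library enters only through the shared estimate of spread, leaving it out kept the fold changes and made 3 calls in edgeR: Orm2 (adjusted p = 0.0137), Lcn2 (adjusted p = 0.0226) and Apcs (adjusted p = 0.0137), where 0.0787% of all genes were called lower. Leaving out as well the HIRA-guide liver whose sex did not match its label, a choice made after seeing the data, gave 5 calls (Saa1, Orm1, Orm2, Lcn2 and Apcs), where 0.131% of all genes were called lower. The Rosa26 library was itself singled out for its high values of these genes, which widen the shared estimate of spread. An edgeR fit on the 10 livers at 6 months alone, which also leaves that library out, called no gene (smallest adjusted p of all tested genes 0.0787). The sign at 6 months was negative for all 10 genes under each of the 30 alternatives computed.

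**Figure D3:**
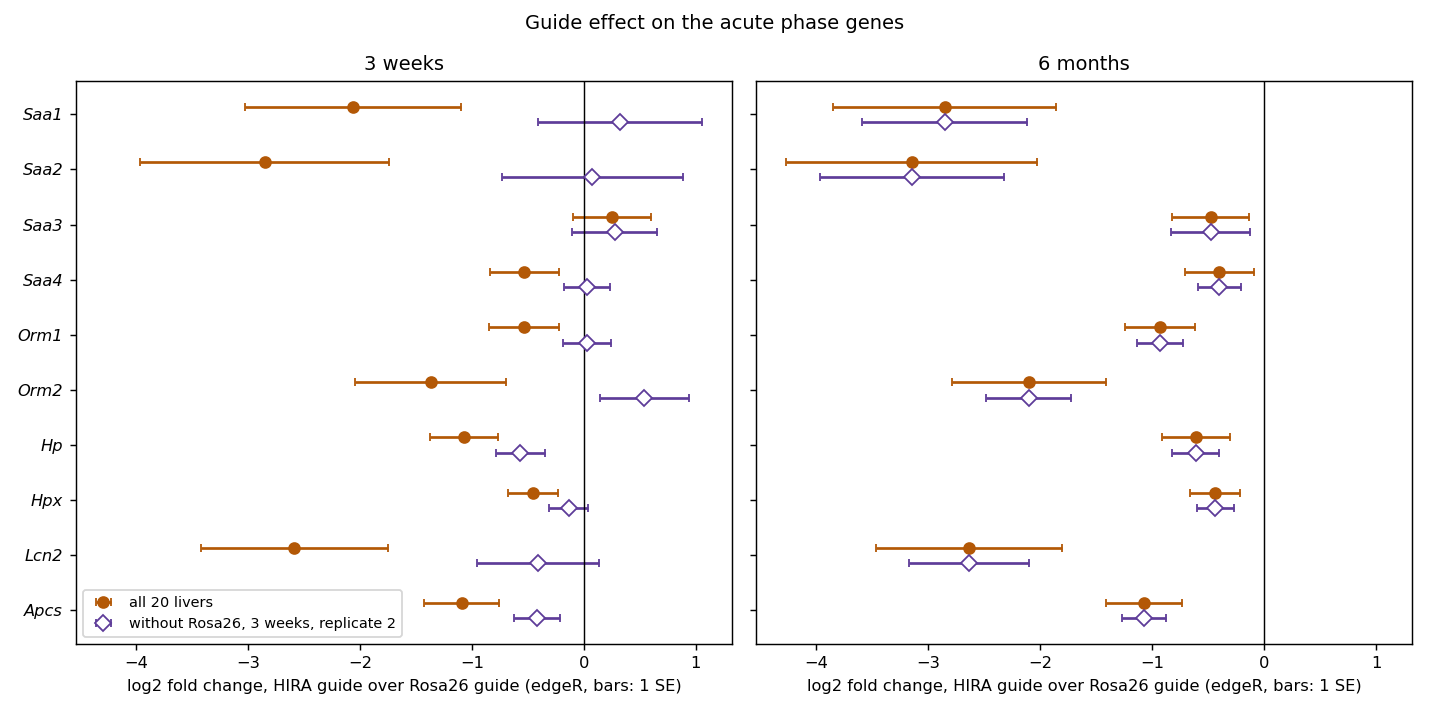
Log2 fold change (HIRA guide over Rosa26 guide, edgeR, bars 1 SE) of the 10 genes at 3 weeks (left) and 6 months (right), with all 20 livers (filled circles) and without Rosa26 replicate 2 at 3 weeks (open diamonds). At 3 weeks Saa1 moves from -2.06 to 0.32 when that liver is left out, while at 6 months it stays at -2.85 and its bar shortens.

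Over time, the Rosa26 livers had higher means at 6 months than at 3 weeks for 9 of the 10 genes, none at an unadjusted p under 0.05 and none called by edgeR, DESeq2 or limma-voom, where edgeR called 0.162% of all genes. For Saa1 and Saa2 the median went from 105 to 1970 CPM and from 58.3 to 1750 CPM, but the 3-week range included the highest liver of all, and the log2 fold changes were 0.99 ± 0.94 (adjusted p = 0.729) and 0.995 ± 1.04 (adjusted p = 0.764) in edgeR. Without that liver they were 3.37 ± 0.83 (adjusted p = 0.0975) and 3.92 ± 0.93 (adjusted p = 0.0918) in edgeR, and 9 of the 10 genes, all except Saa3, had an unadjusted p under 0.05, beside 12.2% of all tested genes. Without it, Orm2 (log2 fold change 2.48, adjusted p = 0.0148) and Lcn2 (3.00, adjusted p = 0.0439) were called higher at 6 months in edgeR, where 0.0481% of all genes were called higher. With it, their log2 fold changes were 0.58 and 0.83. That liver was singled out for its high values of these same genes. Leaving it out therefore raises these fold changes and narrows their errors by construction, and the calls made without it are no independent support. Estimates given below without it, for the difference between the times, carry the same limit. In the HIRA-guide livers 6 of the 10 were higher at 6 months, none had an unadjusted p under 0.05 and none was called by edgeR, DESeq2 or limma-voom, where edgeR called 0.0569% of all genes, and the largest log2 fold change was 0.78 ± 0.80 for Lcn2 (adjusted p = 0.84). Only Hp had HIRA-guide ranges without overlap, 2266 to 2525 CPM at 3 weeks and 3078 to 4265 CPM at 6 months. Its log2 fold change was 0.55 (adjusted p = 0.634, edgeR), and the share of all genes without such overlap was not counted. The difference between the guide effects at 6 months and 3 weeks was called for none of the 10 genes, nor for any tested gene (0.0%), and none of the 10 had an unadjusted p under 0.05. By DESeq2 and by limma-voom the count of called genes for this difference was also 0 of all tested genes. Its estimates for Saa1 and Orm2 were -0.79 ± 1.32 (adjusted p = 0.957) and -0.73 ± 0.94 (adjusted p = 0.94, edgeR), so an effect that differs between the times by several fold lies within these errors. Without Rosa26 replicate 2 at 3 weeks the estimates were -3.18 ± 1.04 for Saa1, -3.22 ± 1.14 for Saa2, -2.64 ± 0.55 for Orm2 and -2.23 ± 0.76 for Lcn2, beside -0.30 for Saa2 and -0.05 for Lcn2 with it. In that edgeR fit 6 of the 10 had an unadjusted p under 0.05 (Saa1, Saa2, Orm1, Orm2, Lcn2 and Apcs, the lowest 0.000107 for Orm2), beside 6.32% of all tested genes, but none was called, nor any other gene, with an adjusted p of at least 0.775 for each of the 10.

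The spread between animals of one group was itself large. Pooled over the 4 groups, the within-group SD of log2 CPM was 1.94 for Saa2, 1.71 for Saa1, 1.41 for Lcn2 and 1.12 for Orm2, which are the 99.9, 99.8, 99.6 and 99.1 percentiles of the 12903 genes with a mean of at least 1 CPM, whose median SD was 0.204. Saa3 (0.589), Apcs (0.558), Orm1 (0.525), Hp (0.514) and Saa4 (0.512) lay between the 89.0 and 92.2 percentiles, and Hpx (0.367) at 78.9. Without Rosa26 replicate 2 at 3 weeks, Saa2, Saa1, Lcn2 and Orm2 were still at the 99.6, 99.4, 98.8 and 94.4 percentiles. That liver held 53.6 times the median of the other 4 of its group for Saa1, 94.9 times for Saa2, 32.6 times for Lcn2 and 19.7 times for Orm2. The factor was 3.9 for Apcs, 3.54 for Orm1, 3.49 for Saa4, 3.28 for Hp, 2.29 for Hpx and 1.26 for Saa3. Among 7883 genes with a mean of at least 10 CPM, Saa2, Saa1, Lcn2 and Orm2 were the 4 that departed upward most in that liver, in this order.

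**Figure D4:**
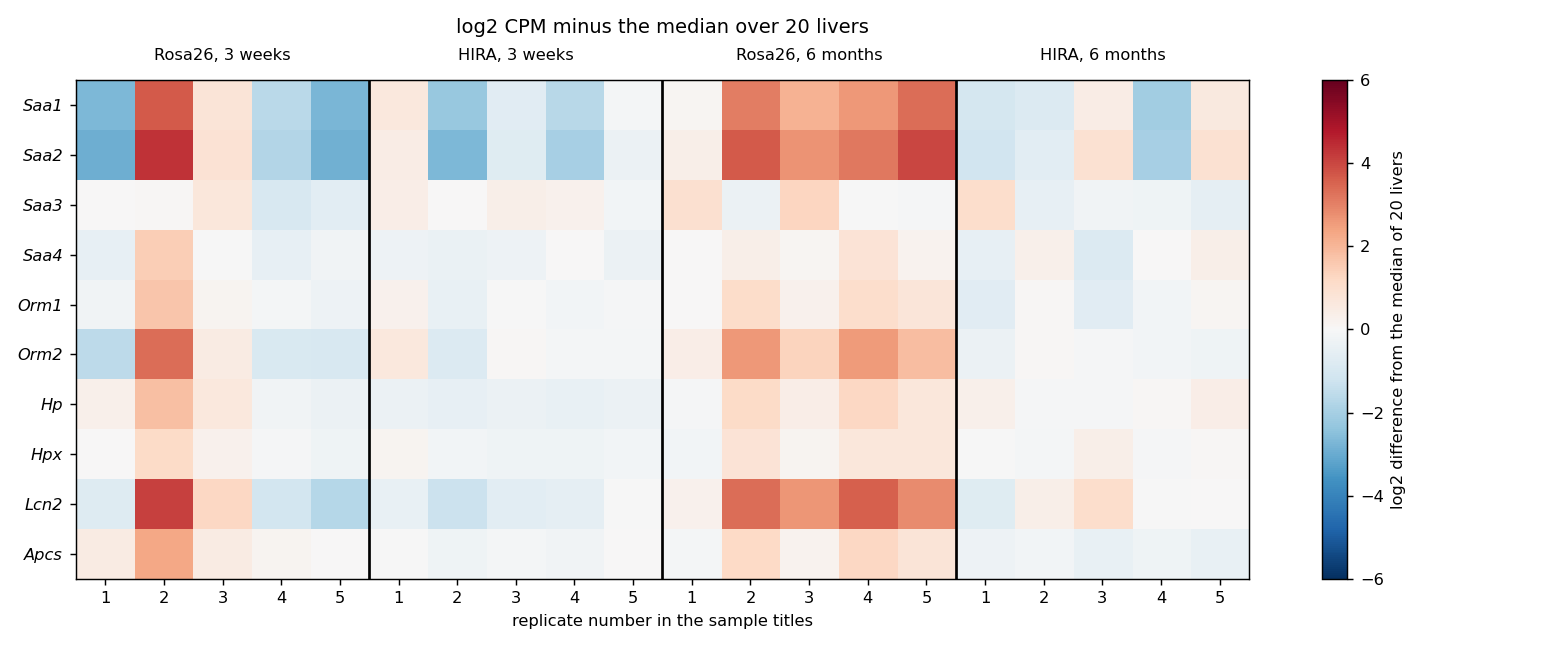
Log2 CPM of each gene minus its median over 20 livers (colour, red higher and blue lower), with livers in columns by group and replicate number. A red column appears at Rosa26 replicate 2 at 3 weeks and at Rosa26 replicates 2 to 5 at 6 months for Saa1, Saa2, Orm2 and Lcn2, where no HIRA-guide column is of that depth. For Saa4 and Hpx some HIRA-guide livers at 6 months stand as high as Rosa26 livers of that time, with 318 CPM of Saa4 in HIRA replicate 5 against 268 CPM in Rosa26 replicate 3.

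Pooled over the 4 groups, the genes other than Saa3 varied together. With group means removed, Pearson r over the 20 livers was 0.586 to 0.998 (median 0.877) for the 36 pairs that do not include Saa3, and 33 of these pairs had an adjusted p under 0.05 (two-sided permutation test within groups, 100000 permutations, adjusted over 45 pairs). For the 9 pairs with Saa3, r ran from -0.234 to 0.054 and none passed. Groups with the widest spread weigh most in these pooled coefficients, which need not hold in each group. HIRA replicate 3 at 6 months was the highest of its group for Saa2 (374 CPM), Hpx (6437 CPM) and Lcn2 (80.6 CPM). The same liver was the lowest of its group for Saa4 (142 CPM) and Orm1 (571 CPM). Coefficients within single groups were not computed. Saa1 and Saa2 were nearly interchangeable (r = 0.998, Spearman rho = 0.992, permutation p = 1e-05 for each, the smallest these permutations can give, and 0.00045 adjusted), which the shared sequence of the copies also touches. Orm2 and Lcn2 had r = 0.926 (permutation p = 0.00029, adjusted 0.00109) and rho = 0.86 (permutation p = 0.0002, adjusted 0.0015), and Hp and Apcs had r = 0.929 (permutation p = 0.00025, adjusted 0.00106) and rho = 0.705 (permutation p = 0.00451, adjusted 0.00898). After leaving out the 2 livers farthest from the median of the first gene, these were 0.997, 0.883 and 0.841. By Spearman rho, which ran from 0.412 to 0.992 for the 36 pairs, 32 had an adjusted p under 0.05. Without Rosa26 replicate 2 at 3 weeks, 27 pairs still passed. Saa4 depended most on that liver: its r without it was 0.16 with Saa1, 0.08 with Hpx and 0.29 with Lcn2, beside 0.60, 0.59 and 0.69 with it, and was 0.73 with Orm1. As 20 livers share 4 group means, these coefficients describe animals of this series.

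**Figure D5:**
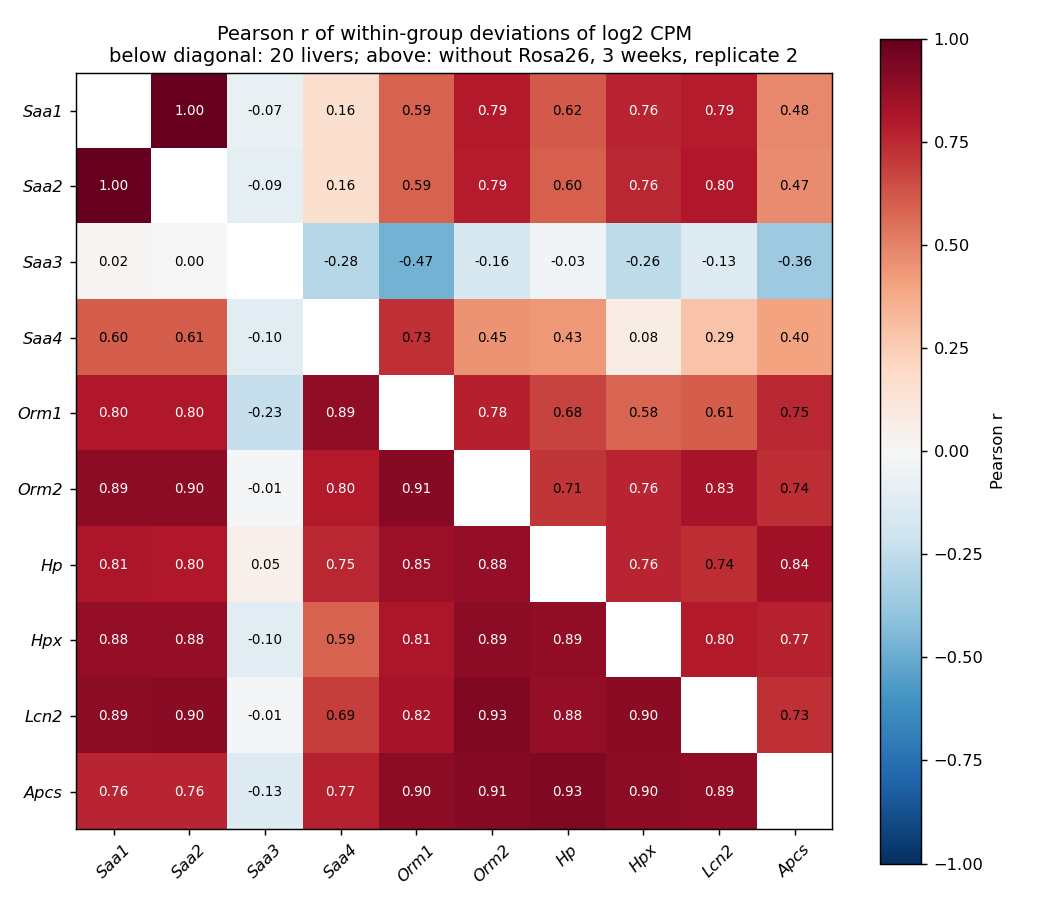
Pearson r between genes of their deviations from the group mean (log2 CPM), below the diagonal over 20 livers and above it without Rosa26 replicate 2 at 3 weeks. Every pair without Saa3 is positive on both sides, from 0.586 to 0.998 below the diagonal, while the Saa3 row and column stay near or below 0.

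The non-member genes whose deviations were most like each gene's, among 7883 genes with at least 10 CPM, are given as a description over the same 20 livers. For Apcs they were Qsox1 (r = 0.975), a sulfhydryl oxidase, and the fibrinogen chains Fgb (0.948) and Fga (0.946). For Hp they were Lrg1 (0.934), Qsox1 (0.908) and Serpina10 (0.898). Saa4 and Orm1 had Prg4 (0.964 and 0.946) and Slc39a1 (0.917 and 0.938) in common. Orm2 and Lcn2 shared Cyb561 (0.925 and 0.924), Serpina10 (0.918 and 0.901) and Qsox1 (0.913 and 0.881). Genes close to Saa1 were Rnf114 (0.867) and Fosl2 (0.866), which were also among the 3 closest to Saa2, and Hpx was closest to Lrrc42 (0.901). Saa3 was closest to Tor3a (0.776), Arpc4 (0.744) and the interferon-induced Bst2 (0.742).

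The other positive acute phase genes, a list of 33 of which 31 were tested, leaned the same way. At 3 weeks 28 of the 31 were lower with the HIRA guide and 16 had an unadjusted p under 0.05, beside 4.5% of all tested genes, and none was called in edgeR, with a median log2 fold change of -0.43. Rosa26 replicate 2 at 3 weeks stood above the median of its group's other 4 livers for 22 of the 31 genes, and over all 31 the median factor was 1.73. Without that liver 24 of the 31 were lower at 3 weeks, 9 of them at an unadjusted p under 0.05, beside 3.31% of all tested genes, with a median of -0.31. At 6 months 26 of 31 were lower, 10 at an unadjusted p under 0.05, beside 6.85% of all tested genes, and 1 was called, beside 0.332% of all tested genes: Orm3, the third orosomucoid. It had a median of 23.5 CPM with the Rosa26 guide and 5.51 CPM with the HIRA guide, and the ranges 7.62 to 53.5 and 1.64 to 7.63 CPM touched. Its log2 fold change at 6 months was -2.62 ± 0.55 (adjusted p = 0.0238, edgeR), against -1.99 at 3 weeks (adjusted p = 0.163), or -1.24 at 3 weeks without Rosa26 replicate 2 (adjusted p = 0.546). Orm3 was called at 6 months in 26 of 30 alternatives. In edgeR the call was lost without Rosa26 replicate 4 (-2.26, adjusted p = 0.0833), without HIRA replicate 1 (-2.41, adjusted p = 0.0581) and without HIRA replicate 3 (-2.46, adjusted p = 0.0517), and in a fit on the 10 livers of that time alone (-2.62, adjusted p = 0.111), with log2 fold changes close to that of all livers. Only 3.6% of the 50-base stretches of Orm2 occur in Orm3, so fewer reads than between Orm1 and Orm2 could be shared.

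The negative acute phase genes, which hepatocytes lower in the response, included 16 tested, of which 10 were lower at 3 weeks and 8 at 6 months, with none called and medians of -0.03 and -0.004. At an unadjusted p under 0.05, 4 of the 16 were lower at each time, beside 4.5% and 6.85% of all tested genes, and the same number at each time without Rosa26 replicate 2 at 3 weeks. Igf1, the growth factor, was lower at 6 months by adjusted p alone (log2 fold change -0.47, adjusted p = 0.0388, edgeR). Albumin, the most abundant, had log2 fold changes of 0.28 (adjusted p = 0.707) and 0.35 (adjusted p = 0.32) in edgeR, and in the 3-week Rosa26 replicate 2 it stood at 0.708 times the median of its group's other 4 livers. Over the 16 genes the median of this factor was 0.853, and 4 were above the other livers' median, among them transferrin (Trf) at 1.14 times. Of 36 genes that carry cytokine signals to acute phase genes, 24 were lower at 3 weeks and 14 at 6 months, and none was called. At an unadjusted p under 0.05, 6 of the 36 were lower at 3 weeks, beside 4.5% of all tested genes, and 2 at 6 months, beside 6.85%. Without Rosa26 replicate 2 the number at 3 weeks was 2, beside 3.31% of all tested genes. The smallest adjusted p in the signalling list was 0.366 at 3 weeks and 0.0793 at 6 months. In the 3-week Rosa26 replicate 2, Stat3 was at 2.0 times and its feedback inhibitor Socs3, named here after its values were seen, at 4.04 times the median of the other 4, while Cebpa and Hnf4a were at 0.995 and 1.0 times. The inducing cytokines of the list were not above the others in that liver: Il1b was at 0.368, Il1a at 0.567 and Tnf at 0.443 times the median of the other 4, and Il6 had no counts, all at low levels. Over the 36 genes, 17 were above that median. Of 8 receptors and partners of these proteins, none was called for the guide. Cd36, a scavenger receptor, was called higher at 6 months than at 3 weeks in the Rosa26 livers (log2 fold change 1.10, adjusted p = 0.0497, edgeR), beside 0.162% of all tested genes. In the HIRA-guide livers its log2 fold change over time was 1.02 (adjusted p = 0.12, edgeR), without overlap between the times. The Rosa26 difference was called in 11 of 30 alternatives, with log2 fold changes of 0.92 to 1.27 and adjusted p up to 0.128, and not without Rosa26 replicate 2 at 3 weeks (0.96, adjusted p = 0.0968). Among the marker lists in the 3-week Rosa26 replicate 2, neutrophil markers ranked 4 of 20, Kupffer cell and macrophage markers summed to 379 CPM, rank 15 of 20, and hepatocyte markers to 94510 CPM, rank 19 of 20. The adipocyte, biliary, stellate and endothelial lists ranked 6, 10, 18 and 14 in it. The HIRA-guide liver at 6 months whose sex did not match its label also stood apart here, with adipocyte markers at 66.7 CPM, against at most 4.99 CPM in any liver of the other 3 groups, mostly from Cidec (1193 counts, against at most 69 in the other 19 livers), and with Kupffer cell and macrophage markers at 139.9 CPM, the lowest of the 20. Its Saa3 stood at 5.29 CPM, the lowest of its group. At 6 months 0 of 6 stellate (median log2 fold change 0.475), 0 of 6 endothelial (0.33) and 1 of 6 adipocyte markers (2.98) had a lower mean with the HIRA guide. Lower means were found for 3 of 8 hepatocyte (0.068), 2 of 6 biliary (0.183) and 6 of 9 Kupffer cell and macrophage markers (-0.113). None of these markers was called, beside 0.332% of all tested genes. The sums of all 7 lists overlapped between guides at each time, and the part of cell makeup in the results was not tested.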

How the data were processed

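RNA from 20 livers was measured by poly(A)-selected, directional RNA-seq. Reads were aligned to mm10 with STAR, and the authors deposited raw, unnormalized counts per gene. Counting was done with HOMER by the study's methods, whereas the submitters' processing notes list STAR, HTSeq and Cufflinks, and use of strand is not given in the sources used here. The authors also deposited FPKM values, for which the tool is not given in the sources used here, and 28812 cells of that table are blank where the gene has counts. The FPKM values served only for levels per length and for an alternative test, with blanks set to 0.

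Groups and replicate numbers came from the sample titles, and all 20 count columns were mapped. Genes with under 10 counts in total were removed, which left 22867 genes, and 22854 had no count in any liver. The main test was edgeR 4.0.16 (quasi-likelihood F test, TMM factors), fitted to the 20 livers at once with a mean per group, and p-values were adjusted by Benjamini-Hochberg over all genes tested. A gene was called at an adjusted p under 0.05 and an absolute log2 fold change over 1, the thresholds of the study. DESeq2 1.42.0, limma 3.58.1 (voom, and log2 of FPKM plus 1 or 0.1), RLE factors, other filters, fits on the compared groups alone, a replicate block and the removal of each liver in turn were alternatives. Log2 CPM used a prior count of 2. Fits ran in R 4.3.3. Summaries and permutations used pandas 2.3.3 and numpy 2.4.6 under Python 3.11.15, with ranks from scipy 1.17.1 and plots from matplotlib 3.10.9, and the fits were tested on simulated data.

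The 10 genes, the other gene lists and the tests were chosen with earlier results of these data known. Named beyond the 10 were Hira, genes of a list that were called or, for the negative and signalling lists, its most abundant ones, Igf1, Socs3, the inducing cytokines and single marker genes (Xist, Ly6g, S100a8, S100a9, Cidec), all named after their values were seen, and for each of the 10 the 3 genes with the highest correlation of within-group deviations, of which not all are reported here. The labels do not say that livers came from separate cages or litters, so p-values measure the spread between these animals. No 2 libraries of a group were identical or agreed within sampling noise. Coordinates are GRCm38 (GENCODE M21), 1-based, and promoters are from RefSeq. Depth of 19916430 to 24079736 counts leaves counting error small beside the spread between animals for the 10 genes other than Saa3 (90 to 448 counts). Counting error is a larger part of the spread for Saa3, Hira, Orm3, the cytokines and the neutrophil markers, whose counts were low.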

Additional observations from a re-analysis of the deposited data

Results flagged for a closer look

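Within each of the 40 combinations of a gene and a group, the distance of the highest or lowest liver to its nearest neighbour was divided by the range of the 5 livers on the log2 CPM scale, and a liver was singled out above 0.71. Chance alone singles out about 1 in 20 groups, and 7 of the 40 were singled out. In 3 of them the liver was Rosa26 replicate 2 at 3 weeks, with ratios of 0.743 for Saa4 (679 CPM, next 246), 0.762 for Orm1 (2891 CPM, next 1043) and 0.787 for Apcs (650 CPM, next 189). The same liver was the highest of its group for Saa1, Saa2, Orm2, Hp, Hpx and Lcn2 without passing this limit. Lcn2 in Rosa26 replicate 1 at 6 months was singled out as the lowest of its group (0.719), with 46.3 CPM against 243 CPM in the next liver. In the HIRA groups, Saa3 in replicate 1 at 6 months (0.795, 16.0 CPM against 6.64), Saa4 in replicate 4 at 3 weeks (0.795, 250 CPM against 200) and Hpx in replicate 1 at 3 weeks (0.809, 5676 CPM against 4496) were the highest of their groups.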

How the results depend on the processing

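The counts of called genes depended on the tool and on 1 liver. DESeq2 called 1 of the 10 genes at 3 weeks and 4 at 6 months, where edgeR called 0. Leaving out each liver in turn gave 0 to 3 calls at 6 months and 0 to 2 in the Rosa26 livers over time, and Rosa26 replicate 2 at 3 weeks was the liver behind both upper ends. Leaving out that liver and HIRA replicate 5 at 6 months together, chosen after seeing the data, gave 5 and 2 calls. RLE factors, limma-voom, both other filters, fits on the compared groups alone and both FPKM scales gave 0 calls for all 5 comparisons in which they could be run, and fits on the compared groups cannot give the difference between times. At 3 weeks the log2 fold changes over the removals of single livers ran from -2.54 to 0.32 for Saa1, from -3.34 to 0.077 for Saa2, from -0.68 to 0.028 for Saa4, from -0.67 to 0.028 for Orm1 and from -1.65 to 0.54 for Orm2. The upper ends came without Rosa26 replicate 2 and were the same with both livers left out. Hira at 6 months changed sign on the log2 scale of FPKM plus 1 (0.032) and plus 0.1 (0.036). Of the 652 further values computed for 22 small differences over time or between times, 60 changed sign, in 11 of the 22, and 0 were called. Over all tested genes the number called at 3 weeks, 26 in edgeR, was 69 with DESeq2, 13 with limma-voom, 67 with the compared groups alone, 4 and 6 with the FPKM scales and 3 to 43 over the removals of single livers. At 6 months it was 76 in edgeR, 127 with DESeq2, 0 with the compared groups alone, 14 and 44 with the FPKM scales and 18 to 109 with livers left out. Why edgeR on the compared groups alone called no gene at 6 months (2736 genes at an unadjusted p under 0.05) was not tested. In the Rosa26 livers over time it was 37 in edgeR, 156 with DESeq2, 77 with the compared groups alone, 1 and 4 with the FPKM scales and 2 to 83 with livers left out. In the HIRA-guide livers over time it was 13 in edgeR, 74 with DESeq2, 6 with limma-voom, 25 with no filter, 2 and 1 with the FPKM scales and 5 to 25 with livers left out. For the difference between times it was 0, or 1 without HIRA replicate 4 at 6 months.

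The livers share only a replicate number: over 30 pairs of same-numbered livers the correlation of deviations ran from -0.309 to 0.335 (median 0.079, against -0.036 for different numbers), 14 of the 30 were over 0.1, and 2 of 10 HIRA-guide livers were closest to the Rosa26 liver of their number. With the replicate block 0 of the 10 genes were called in any comparison, but at 3 weeks it moved the log2 fold change of Saa1 from -2.06 to -0.69, of Saa2 from -2.85 to -0.99, of Orm2 from -1.37 to -0.32, of Lcn2 from -2.58 to -1.28 and of Orm1 from -0.53 to -0.34. Over all tested genes the block gave 61 calls in the Rosa26 livers over time (37 without) and 26 in the HIRA-guide livers over time (13 without).

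With all livers and the spread seen in Saa1, Saa2, Lcn2 and Orm2, a guide effect that differs between the times by several fold lay within the error. The counts of these genes leave counting error small beside that spread, and depth was not varied.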
